A study of Mus musculus with 8 samples.

Results

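The genes described here are 31 genes of the interstitial extracellular matrix and its producing cells, taken by symbol from the 23171 genes of the deposited count table. They comprise 5 fibrillar collagens, 6 microfibril, network and fibril-associated collagens, 4 small leucine-rich proteoglycans, 6 genes of elastic fibres and crosslinking, 7 matricellular and collagen-binding genes, and 3 genes for growth factor receptors and cytoskeleton. RNA-seq was done on total RNA from mouse epidermis, with the cell type given as keratinocytes, and all animals had received imiquimod, an immune-activating drug used to produce psoriasis-like skin inflammation. Of the 8 libraries, 4 came from mice in which Hnrnpu, the gene for the nuclear RNA-binding protein hnRNP-U, was knocked out specifically in the epidermis (cKO), and 4 from control mice (WT). There was no group without imiquimod, so every value below belongs to treated skin. The promoter that drives the knockout, the strain, age and sex of the mice, and the time under treatment were not given in the sources used here. After a filter on low counts 23 of the 31 genes were tested and 8 were not.

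Dermal fibroblasts are the main source of type I and type III collagen in skin, and they are marked by Pdgfra, Dcn, Lum and Dpt. The fibrillar collagens form the load-bearing fibres of the dermis, the small leucine-rich proteoglycans bind and space those fibres, and elastic fibres are built on a scaffold of fibrillin. Matricellular proteins such as periostin and thrombospondin act on cells more than on tissue strength, and several of them are also made by keratinocytes, leukocytes or other cells. The epidermis lies above the dermis and holds no fibroblasts of its own.

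Each library held 37158621 to 38865722 counts assigned to genes, so 1 count corresponded to 0.0238 to 0.0280 CPM (counts scaled to a common library size, with edgeR's normalisation factors of 0.934 to 1.08). The targeted gene Hnrnpu reached 189.8, 373, 355 and 312 CPM in cKO replicates 1 to 4 and 424 to 455 CPM in the WT libraries. Every cKO library therefore lay below every WT library, at 43.4 to 85.3% of the WT mean, with a log2 fold change of -0.51 ± 0.19 (SE, adjusted p = 0.191, edgeR's quasi-likelihood test). Which exons were deleted was not given in the sources used here. P-values measure the spread between these 8 libraries.

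The levels of the 31 genes did not bear out the name of fibroblast genes for them in these libraries. Compared per transcript length, as FPKM, fragments counted relative to transcript length and library size, 9 genes had a mean of at least 1 FPKM over the 8 libraries, namely Postn, Vim, Sparc, Fbln1, Thbs1, Col12a1, Tnc, Bgn and Fbln2. These 9 held 95.2 to 97.9% of all counts of the 31 genes in every library. The other 22 had means below 1 FPKM, and 15 of them lay below 0.2 FPKM. Among those 15 were the genes that define dermal fibroblasts, Col1a1 (mean 0.131 FPKM), Col1a2 (0.136 FPKM), Col3a1 (0.143 FPKM), Lum, Dpt, Pdgfra and Pdgfrb. Dcn, the fibroblast proteoglycan decorin, had a mean of 0.326 FPKM. Postn, which encodes periostin, had the highest mean, 56.4 FPKM, and exceeded Col1a1 by 61.5-fold to 2072-fold within single libraries. For comparison, the basal keratinocyte keratin Krt14 had a mean of 8970 FPKM, 159-fold above Postn. Together the 31 genes took 0.0333 to 0.0654% of the counts of a library. They are therefore called interstitial matrix genes here, and no cell type is assigned to them.

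**Figure D1:**
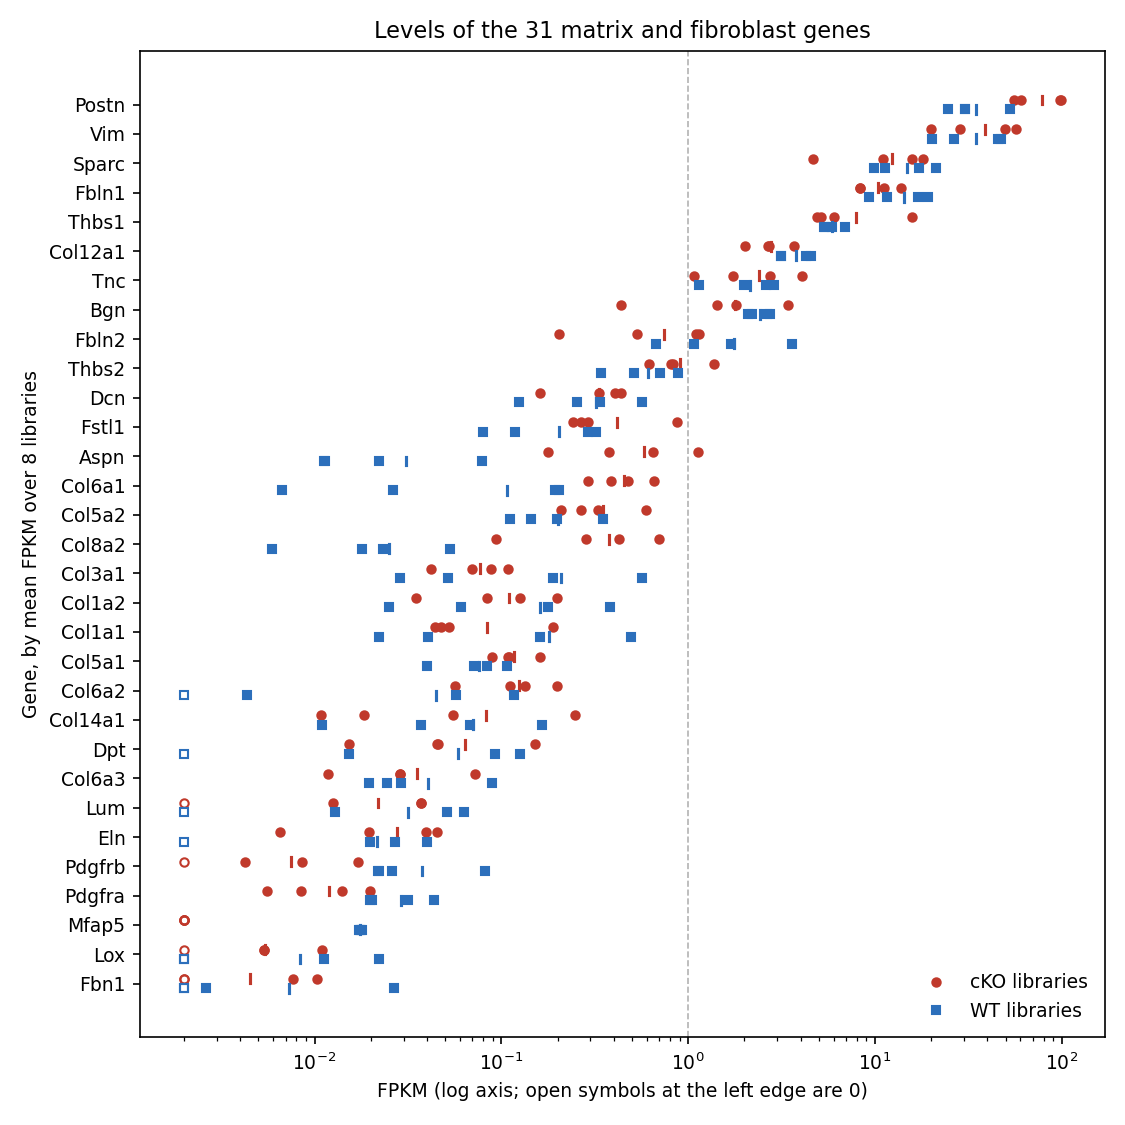
Level of each of the 31 genes (rows, by mean over the 8 libraries) in each library, in FPKM on a log axis, with red circles for cKO, blue squares for WT, short bars for the mean of each genotype and open symbols at the left edge for 0. The dashed line is 1 FPKM; the means run from Postn at 56.4 FPKM down past Col1a1 at 0.131 FPKM to genes with libraries at 0.

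In the order of mean FPKM, neighbouring genes mostly could not be separated. Of the 30 pairs of neighbours, only Thbs1 and Col12a1 had ranges over the 8 libraries that did not overlap. Postn ranged from 24.7 to 98.9 FPKM and Vim, which encodes the intermediate filament vimentin, from 20.02 to 57.1 FPKM. Sparc (4.64 to 21.1 FPKM), which encodes a collagen-binding matricellular protein, and Fbln1 (8.27 to 19.3 FPKM), for fibulin-1, followed.

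Of the 23 genes tested, 2 rose in cKO epidermis and 0 fell at an adjusted p below 0.05 in edgeR's quasi-likelihood test. Among all 14004 genes tested 0.671% were called higher and 0.65% lower, 1.32% in either direction. The 2 genes were Aspn, which encodes the proteoglycan asporin, and Col8a2, which encodes a chain of the network-forming type VIII collagen. Both passed the count filter only through the cKO libraries, in which all 4 exceeded the filter level of 0.262 CPM and no WT library did. A gene of that kind had to be higher in cKO to be tested at all, so the count of 2, and the median over the genes tested, are descriptions of these genes. The median log2 fold change over the 23 tested genes was 0.13 (quartiles -0.51 and 0.84), beside 0.01 over all genes tested (quartiles -0.17 and 0.23). Fold changes were positive for 14 and negative for 9 of the 23. The median ranged from -0.14 to 0.32 over other settings, which covered 10 to 31 of the genes.

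Aspn was measured at 0.884, 0.448, 1.42 and 2.45 CPM in cKO replicates 1 to 4 and at 0.184, 0.0276, 0.0278 and 0.0535 CPM in WT replicates 1 to 4. The lowest cKO library, replicate 2, lay above the highest WT library, replicate 1. These values rest on 212 counts over the 4 cKO libraries and 11 over the 4 WT libraries. This gave a log2 fold change of 4.08 ± 0.73 (SE, adjusted p = 0.0362, edgeR's quasi-likelihood test), a 16.9-fold difference with a 95% interval of 5.42- to 53.0-fold. Of the 2354 exon bases of Aspn in the GENCODE M21 annotation, 7 are shared with Cenpp on the opposite strand, and the strand setting of the counting was not given in the sources used here.

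Col8a2 was measured at 1.27, 0.448, 1.79 and 2.90 CPM in cKO replicates 1 to 4 and at 0.236, 0.0829, 0.0278 and 0.107 CPM in WT replicates 1 to 4. Replicate 2 was again the lowest cKO library and replicate 4 the highest, and the groups did not overlap. The counts were 261 in cKO and 17 in WT. The difference on the log2 scale was 3.77 ± 0.70 (SE, adjusted p = 0.0373, edgeR's quasi-likelihood test), 13.7-fold with a 95% interval of 4.61- to 40.7-fold. Both calls were lost under limma-voom, where the adjusted p was 0.0507 for Aspn and 0.0728 for Col8a2, and when WT replicate 1, 2, 3 or 4 or cKO replicate 1 or 3 was left out (0.0595 to 0.115 and 0.0635 to 0.121). Without cKO replicate 4 Aspn was called (0.0472) and Col8a2 was not (0.0532). Among all genes these settings called, in either direction, 1.21% with limma-voom. With cKO replicate 1, 3 or 4 left out the share was 0.141%, 0.465% or 1.5%, and with WT replicate 1, 2, 3 or 4 left out it was 0.238%, 0.253%, 0.056% or 0.161%.

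Both genes were called with DESeq2, with RLE factors, with library size only, with no low-count filter and without cKO replicate 2, settings that called 8.63%, 1.31%, 1.83%, 1.51% and 3.55% of all genes tested in them. Neither was called by limma on log2(FPKM + 1) without a filter, which called 0.082% of all genes, and with the replicate number as a block, which called 1.54%, only Aspn was called. Filters at 1 CPM or at 0.5 FPKM left both untested and called 1.42%, 1.27% or 1.47% of the genes that remained.

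Postn, a matricellular protein that binds collagen and integrins, was measured at 189, 221, 309.8 and 311 CPM in cKO replicates 1 to 4 and at 177.5, 106, 88.0 and 106 CPM in WT replicates 1 to 4. All 4 cKO libraries lay above all 4 WT libraries, although cKO replicate 1 and WT replicate 1 were close. With 3168 to 13091 counts per library, Postn was by far the most deeply counted of the genes with separated groups. The cKO mean was 258 ± 62.3 CPM and the WT mean 119.5 ± 39.6 CPM (SD, n = 4 libraries each). On the log2 scale the difference was 1.11 ± 0.24 (SE), 2.16-fold with a 95% interval of 1.47- to 3.16-fold. It did not pass the threshold (adjusted p = 0.0553, edgeR's quasi-likelihood test; two-sided exact permutation p of the log2 CPM values = 0.0286, the smallest that 4 libraries against 4 allow). DESeq2 called it (adjusted p = 0.000632), as did edgeR without the low-count filter (0.0358) or without cKO replicate 2 (0.0488). Postn made up 41.0 to 57.7% of the counts of the 31 genes in cKO libraries and 23.9 to 37.3% in WT libraries, so it moved the sum of all 31.

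Aspn and Col8a2 are shown with Postn by the 250 bases before their RefSeq start sites, because these are the genes with the smallest adjusted p among the 31 and their upstream sequences differ widely in composition. RefSeq windows of build GRCm38.p6 were matched for 20 of the 31 genes. Each is printed in lower case from 5′ to 3′ on the sense strand, and capitals mark 3 promoter motifs on either strand. The motifs are TATAAA for the TATA box, then CCAAT as found in many promoters, and GGGCGG as bound by Sp-family factors. The window of Aspn is chr13:49544193-49544442 (+), that of Col8a2 is chr4:126286544-126286793 (+) and that of Postn is chr3:54360857-54361106 (+).
Aspn: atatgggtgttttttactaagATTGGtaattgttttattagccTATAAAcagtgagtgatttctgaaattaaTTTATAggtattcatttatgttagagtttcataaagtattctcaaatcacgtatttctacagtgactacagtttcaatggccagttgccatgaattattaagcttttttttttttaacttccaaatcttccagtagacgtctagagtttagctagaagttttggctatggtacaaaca
Col8a2: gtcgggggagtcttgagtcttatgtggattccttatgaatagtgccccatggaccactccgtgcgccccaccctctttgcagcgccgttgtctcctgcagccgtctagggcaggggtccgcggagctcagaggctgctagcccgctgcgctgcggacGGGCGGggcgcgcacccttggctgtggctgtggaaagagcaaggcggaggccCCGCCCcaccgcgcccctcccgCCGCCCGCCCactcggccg
Postn: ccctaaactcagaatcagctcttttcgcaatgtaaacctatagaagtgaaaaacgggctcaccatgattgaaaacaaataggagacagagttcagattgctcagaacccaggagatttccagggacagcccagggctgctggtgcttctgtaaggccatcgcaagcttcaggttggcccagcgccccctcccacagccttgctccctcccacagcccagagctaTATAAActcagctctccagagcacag
The Aspn window had a GC content of 30%, and only 1.47% of the 32851 windows in the table had a lower one. It held TATAAA 207 and 178 bases before the start, the second as its reverse complement TTTATA, and CCAAT as its reverse complement ATTGG 229 bases before the start. The Col8a2 window had a GC content of 70%, above that of 90.8% of windows, and held GGGCGG or its reverse complement CCGCCC at 93, 41, 19 and 15 bases before the start, the last 2 overlapping. The Postn window, the one of 2 in the table that is nearest to the GENCODE start, had a GC content of 52% and held TATAAA 26 bases before the start. Of all windows of this length 12.4% held TATAAA, 33.8% CCAAT and 32.7% GGGCGG on either strand. A match is a description of the letters and not evidence of binding.

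**Figure D2:**
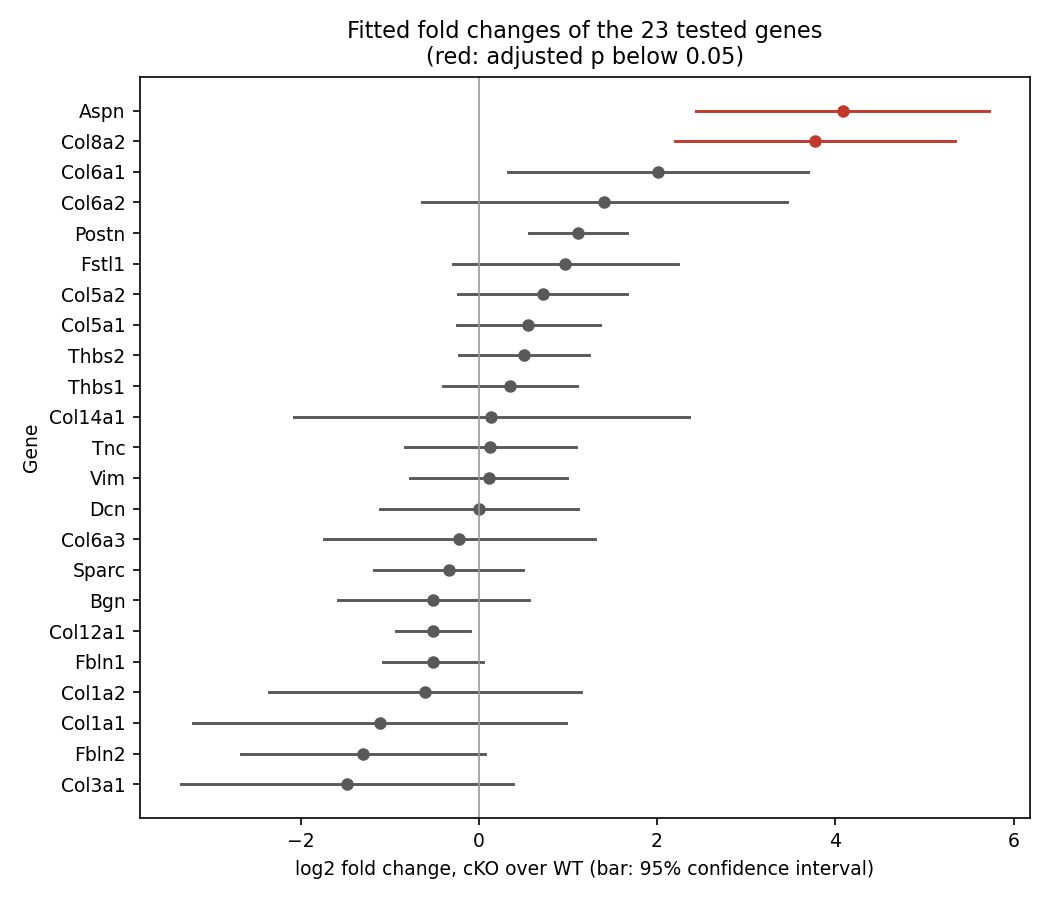
Fitted log2 fold change of cKO over WT (points) with 95% confidence intervals (bars) for the 23 tested genes, from edgeR. Red marks Aspn (4.08) and Col8a2 (3.77), the 2 genes with an adjusted p below 0.05; the intervals of Postn, Col6a1 and Col12a1 also exclude 0 before adjustment, and the others include it.

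The fibrillar collagens, the fibres of the dermis, had low counts. Single libraries held as few as 5 counts of Col1a1 and Col1a2 and 6 of Col3a1, while Col5a1 and Col5a2 had at least 13 and 28. Col1a1 was measured at 0.260, 1.20, 0.289 and 0.262 CPM in cKO replicates 1 to 4 and at 0.944, 3.01, 0.250 and 0.134 CPM in WT replicates 1 to 4. The cKO values lay within the wider range of the WT values, of which WT replicate 2 was highest and WT replicate 4 lowest. Its log2 fold change was -1.11 ± 0.93 (SE, adjusted p = 0.561, edgeR's quasi-likelihood test), and without WT replicate 2 it was 0.17. Col3a1, the partner of type I collagen in skin fibres, was measured at 0.234, 0.644, 0.362 and 0.452 CPM in cKO and at 1.05, 3.23, 0.167 and 0.294 CPM in WT replicates 1 to 4. Again WT replicate 2 was highest, with 117 of the 174 WT counts, and the groups overlapped. Its log2 fold change was -1.48 ± 0.83 (SE, adjusted p = 0.377, edgeR's quasi-likelihood test). Col1a2, which encodes the second chain of type I collagen, had its highest value in the same library, and its log2 fold change was -0.60 ± 0.78 (SE).

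The type V chains, which start and limit fibril growth, had positive fold changes. Col5a2 was measured at 1.77, 1.48, 2.03 and 3.64 CPM in cKO and at 1.31, 2.38, 0.9998 and 0.749 CPM in WT replicates 1 to 4. WT replicate 2 lay above 3 of the 4 cKO libraries. The log2 fold change was 0.71 ± 0.42 (SE, adjusted p = 0.402, edgeR's quasi-likelihood test) for Col5a2 and 0.56 ± 0.36 (SE) for Col5a1. The summed level of the 5 fibrillar collagens was 3.38 to 5.61 CPM in cKO and 1.66 to 11.6 CPM in WT, with the top WT value in replicate 2.

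Among the other collagens only Col8a2 was called. Col12a1, a fibril-associated collagen and the best expressed collagen of the 31 genes (mean 3.27 FPKM), was measured at 51.8, 30.5, 35.1 and 35.3 CPM in cKO and at 60.3, 65.7, 46.5 and 45.6 CPM in WT replicates 1 to 4. Only cKO replicate 1 lay inside the WT range. The log2 fold change was -0.51 ± 0.19 (SE, adjusted p = 0.186, edgeR's quasi-likelihood test), with a 95% interval from -0.93 to -0.10 before adjustment.

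The type VI collagen chains form beaded microfilaments around cells. Col6a1 was measured at 1.90, 1.23, 2.44 and 1.43 CPM in cKO and at 0.760, 0.8294, 0.0278 and 0.107 CPM in WT replicates 1 to 4. The groups did not overlap, but WT replicates 3 and 4 held only 1 and 4 counts while WT replicates 1 and 2 held 29 and 30. The log2 fold change was 2.01 ± 0.75 (SE, adjusted p = 0.196, edgeR's quasi-likelihood test). Col6a2 had the same WT pattern, with 13, 26, 0 and 1 counts in WT replicates 1 to 4 and 31, 13, 46 and 26 in cKO (log2 fold change 1.41 ± 0.91, SE). The third chain, Col6a3, had a log2 fold change of -0.22 ± 0.67 (SE), with its highest value in WT replicate 2. Col14a1, another fibril-associated collagen, was highest in cKO replicate 3 and WT replicate 3, with 68 and 44 counts, and its log2 fold change was 0.14 ± 0.99 (SE).

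In total 4 of the 23 tested genes, Aspn, Col8a2, Postn and Col6a1, had every cKO library above every WT library, and 0 had the reverse. Among all tested genes 5.26% had every cKO library above and 5.82% every cKO library below. At an unadjusted p below 0.05 there were 5 of 23 genes, beside 18.6% of all tested genes. Since Aspn and Col8a2 were tested only through their high cKO libraries, both counts are descriptions and nothing is read from them against the background.

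Of the small leucine-rich proteoglycans, Aspn was called and Lum was not tested. Bgn, which encodes biglycan, was measured at 4.45, 3.78, 7.99 and 0.999 CPM in cKO and at 6.79, 5.58, 5.42 and 6.74 CPM in WT replicates 1 to 4. The WT libraries lay close together and the cKO libraries on both sides of them (log2 fold change -0.51 ± 0.48, SE; adjusted p = 0.610, edgeR's quasi-likelihood test). Dcn was measured at 0.338, 0.980, 0.651 and 0.785 CPM in cKO and at 0.708, 1.22, 0.555 and 0.268 CPM in WT replicates 1 to 4. The ranges covered each other, and the difference on the log2 scale had a 95% interval from -1.10 to 1.11. Ogn, a neighbour of Aspn in the same family cluster, was counted at 0 to 2 per library over both genotypes. It showed no rise like that of Aspn, while a fall or a small change was not detectable at this depth.

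Of the elastic fibre genes only the fibulins were tested. Fbln1 was measured at 53.3, 34.2, 29.9 and 39.7 CPM in cKO and at 65.1, 76.6, 37.4 and 45.7 CPM in WT replicates 1 to 4. The cKO values were mostly lower but overlapped with WT replicates 3 and 4 (log2 fold change -0.52 ± 0.25, SE; adjusted p = 0.306, edgeR's quasi-likelihood test). Fbln2, the related fibulin-2, was measured at 5.64, 2.83, 0.941 and 5.07 CPM in cKO and at 8.39, 18.2, 3.499 and 5.49 CPM in WT replicates 1 to 4. WT replicate 2 was highest for both fibulins, and the Fbln2 log2 fold change was -1.30 ± 0.61 (SE, adjusted p = 0.293, edgeR's quasi-likelihood test). Fbn1 (0 to 10 counts per library), the fibrillin of the microfibril scaffold, Eln (0 to 7 counts), which encodes elastin itself, Mfap5 (0 to 1 count), a microfibril glycoprotein, and Lox (0 to 4 counts), the collagen and elastin crosslinking enzyme, were too low to test.

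Of the 7 matricellular and collagen-binding genes 6 were tested and 0 were called. Thbs1, which encodes thrombospondin-1, an activator of latent TGF-beta, was measured at 28.6, 32.1, 85.7 and 32.6 CPM in cKO and at 34.1, 32.5, 32.4 and 41.6 CPM in WT replicates 1 to 4. Apart from cKO replicate 3, the libraries of both genotypes lay within 28.6 to 41.6 CPM. The log2 fold change was 0.35 ± 0.33 (SE, adjusted p = 0.616, edgeR's quasi-likelihood test), and without cKO replicate 3 it was -0.16. Fstl1, a secreted glycoprotein, was also highest in cKO replicate 3 (2.94 CPM, against 0.809 to 1.12 CPM in the other cKO libraries). Its log2 fold change was 0.97 ± 0.56 (SE).

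**Figure D3:**
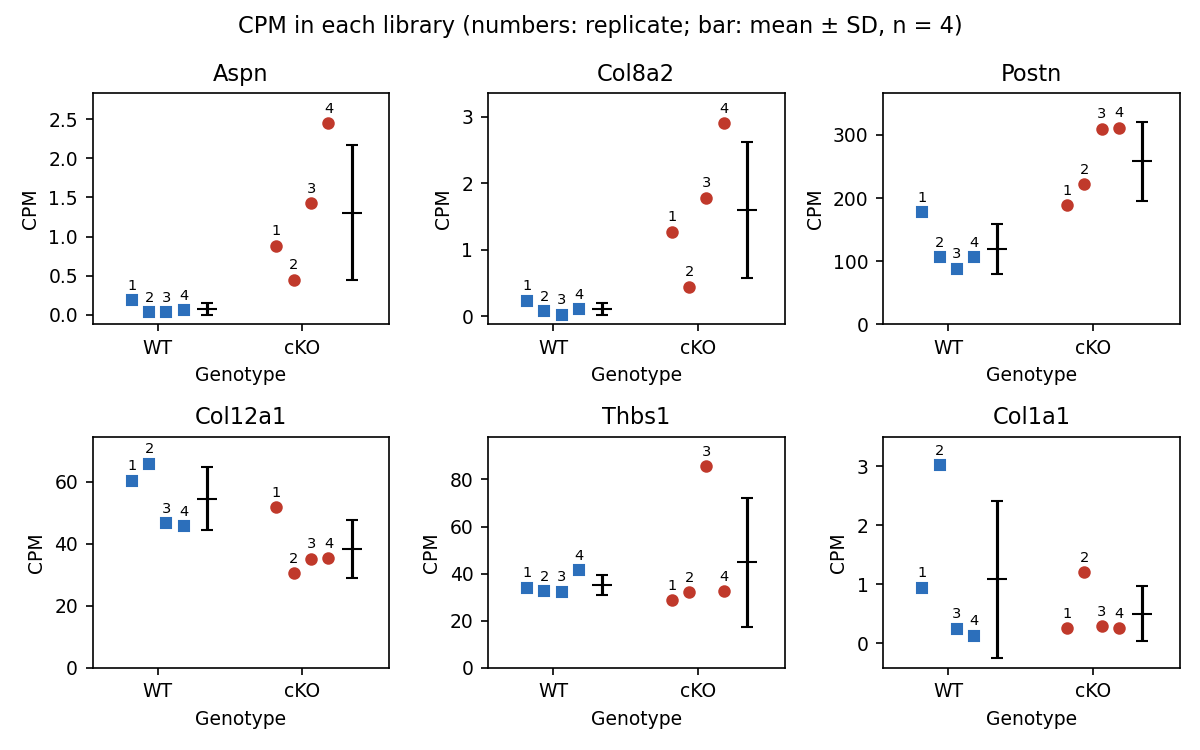
CPM of 6 genes in each library, with blue squares for WT, red circles for cKO, the replicate number above each point, and the mean ± SD (n = 4) as a black bar beside each genotype. Aspn, Col8a2 and Postn do not overlap between genotypes; Col12a1 overlaps through cKO replicate 1, Thbs1 is high in cKO replicate 3 alone (85.7 CPM) and Col1a1 is highest in WT replicate 2 (3.01 CPM).

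Tnc, which encodes tenascin-C, a matrix protein of wounds and inflamed skin, was measured at 13.3, 33.4, 7.74 and 19.6 CPM in cKO and at 15.1, 22.7, 9.14 and 20.6 CPM in WT replicates 1 to 4. The ranges covered each other, and the log2 fold change was 0.13 ± 0.43 (SE, 95% interval -0.83 to 1.09, adjusted p = 0.907, edgeR's quasi-likelihood test). Sparc was measured at 47.6, 13.1, 27.3 and 38.6 CPM in cKO and at 45.2, 57.2, 27.4 and 30.5 CPM in WT replicates 1 to 4. Its libraries interleaved, with cKO replicate 2 lowest and WT replicate 2 highest (log2 fold change -0.34 ± 0.37, SE). Thbs2, the second thrombospondin, had a cKO mean of 5.24 ± 1.69 CPM and a WT mean of 3.68 ± 1.34 CPM (SD, n = 4 libraries each) and was not called. Dpt, which encodes the collagen-binding protein dermatopontin and is strong in dermal fibroblasts, was not tested, with 0 to 10 counts in a library.

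Vim was measured at 52.4, 112, 84.9 and 33.9 CPM in cKO and at 48.4, 38.2, 90.3 and 85.6 CPM in WT replicates 1 to 4. The genotypes overlapped over nearly the whole range (log2 fold change 0.11 ± 0.39, SE, 95% interval -0.77 to 0.99; adjusted p = 0.915, edgeR's quasi-likelihood test). Vimentin is abundant in leukocytes as well as fibroblasts. The summed level of 10 leukocyte markers was 97.7, 148, 121 and 53.3 CPM in cKO and 93.7, 76.4, 138 and 175 CPM in WT replicates 1 to 4. In cKO both were highest in replicate 2 and lowest in replicate 4, and in WT both were lowest in replicate 2. The highest WT library differed, replicate 3 for Vim and replicate 4 for the leukocyte sum. The part of leukocytes in the Vim values was not tested.

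The PDGF receptors carry the growth signal of platelet-derived growth factor into fibroblasts and pericytes. Pdgfra, the receptor that marks fibroblasts, had 3, 7, 5 and 2 counts in cKO and 11, 15, 7 and 7 counts in WT replicates 1 to 4. Pdgfrb, the receptor of pericytes and fibroblasts, had 4, 2, 1 and 0 counts in cKO and 6, 5, 5 and 19 counts in WT replicates 1 to 4. In CPM the groups overlapped for Pdgfra, with cKO replicate 2 at 0.196 CPM and WT replicates 3 and 4 at 0.194 and 0.187 CPM, while every cKO library lay below every WT library for Pdgfrb. Neither gene passed the filter. Fitted without the filter, Pdgfra had a log2 fold change of -1.29 (adjusted p = 0.359) and Pdgfrb of -2.32 (adjusted p = 0.233, edgeR's quasi-likelihood test). Lum, the proteoglycan lumican, had 0 to 5 counts per library. In these bulk libraries fewer cells of a type and less RNA per cell cannot be told apart.

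The libraries differed in which genes they carried most. Of the 31 genes 11 had their highest CPM in WT replicate 2, among them Col1a1, Col1a2, Col3a1, Dcn, Sparc, Fbln1 and Fbln2. Of the 23 tested genes 9 did so, while 8.83% of all 14004 tested genes were highest in that library. Another 8 of the 31 were highest in cKO replicate 3 (17.0% of all tested genes) and 5 in cKO replicate 4 (16.5%). The sum over the 22 genes below 1 FPKM was 15.006, 16.6, 21.3 and 22.7 CPM in cKO and 14.9, 21.4, 7.55 and 8.16 CPM in WT replicates 1 to 4. The WT libraries thus split, with replicates 1 and 2 inside or near the cKO range and replicates 3 and 4 below it.

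**Figure D4:**
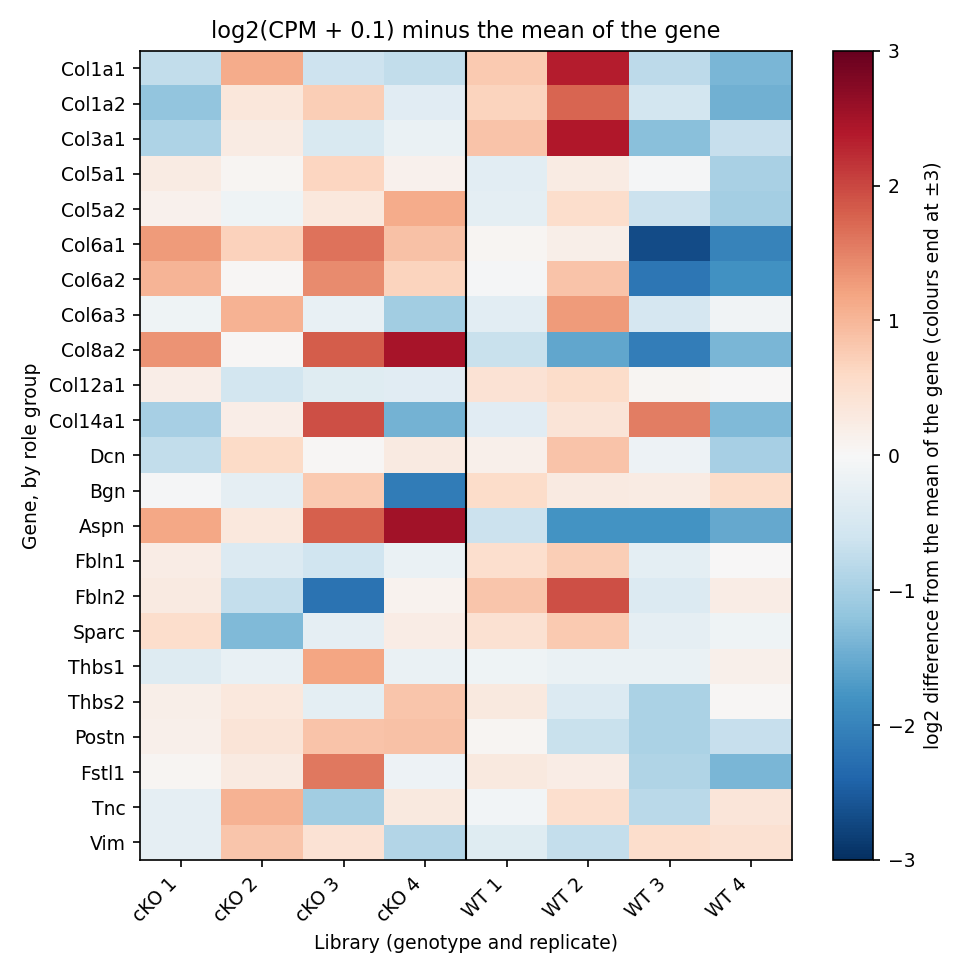
Log2(CPM + 0.1) of each tested gene (rows) in each library (columns) minus the mean of that gene over the 8 libraries; red is above and blue below the mean, and colours end at ±3. Aspn and Col8a2 are highest in cKO replicates 4, 3 and 1, and the column of WT replicate 2 is highest for Col1a1, Col1a2 and Col3a1.

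The other genes of the pathway were read from lists by function, which were drawn up with earlier results of these data known. Over all 14004 tested genes 0.671% were called higher and 0.65% lower. Every cKO library lay above every WT library for 5.26% and below for 5.82%. Because of how these lists and those below were chosen, their counts are descriptions, and nothing is read from them against these shares. Of 24 genes for collagen synthesis and processing 17 were tested and 0 were called in either direction (10 positive, 7 negative, median log2 fold change 0.06). The summed level of the 24 was 1014 to 1258 CPM in cKO and 1287 to 1458 CPM in WT, so every cKO library lay below every WT library. The most abundant were P4hb, a subunit of prolyl 4-hydroxylase, with means of 639.7 ± 113 CPM (cKO) and 797 ± 68.6 CPM (WT; SD, n = 4 libraries each; not called), and Ppib, a collagen chaperone isomerase, at 237 ± 21.8 and 267 ± 10.2 CPM. Of 24 TGF-beta and PDGF pathway genes 23 were tested, 1 rose and 0 fell (10 positive, 13 negative, median -0.18). Ltbp2 encodes a protein of elastic fibres that belongs by name to the latent TGF-beta binding proteins. It was measured at 2.52, 0.504, 1.52 and 2.95 CPM in cKO and 0.184, 0.221, 0.167 and 0.0535 CPM in WT replicates 1 to 4. The groups did not overlap, and only the cKO libraries took Ltbp2 past the count filter. The difference was 3.56 ± 0.62 on the log2 scale (SE, adjusted p = 0.0337, edgeR's quasi-likelihood test). Tgfbi, a TGF-beta-induced matrix protein and the most abundant of the list, had a log2 fold change of -0.59 ± 0.22 (SE), and Ski, a repressor of the pathway, of 0.03 ± 0.08 (SE); neither was called.

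Beside the 2 lists of this paragraph stand the shares over all tested genes, 0.671% called higher and 5.26% with every cKO library above. Of 29 further interstitial matrix genes with counts listed, 17 were tested, 1 rose and 0 fell (7 positive, 10 negative, median -0.19). Efemp1, which encodes fibulin-3, was measured at 12.3, 3.64, 11.3 and 10.8 CPM in cKO and 2.04, 2.43, 2.55 and 1.18 CPM in WT replicates 1 to 4. It was separated between the groups, with a log2 fold change of 2.21 ± 0.40 (SE, adjusted p = 0.0362, edgeR's quasi-likelihood test), unlike its relatives Fbln1 and Fbln2, whose fold changes were negative; the difference between these genes was not tested. The most abundant others, Smoc2, a calcium-binding matrix protein, and Col16a1, a fibril-associated collagen, had log2 fold changes of -0.05 ± 0.28 and -0.19 ± 0.39 (SE). Of 19 other fibroblast markers with counts listed, 7 were tested, 1 rose and 0 fell (5 positive, 2 negative, median 0.40), and 10, among them Twist1, Twist2, Prrx1, Pi16 and Fap, stayed under 10 counts in every library. The gene that rose was Cxcl12, a chemokine of many stromal cells, at 5.33, 3.22, 8.68 and 5.16 CPM in cKO and 1.52, 1.80, 0.972 and 1.097 CPM in WT replicates 1 to 4, without overlap (log2 fold change 2.05 ± 0.34, SE, adjusted p = 0.0308, edgeR's quasi-likelihood test). Gsn, an actin-severing protein, and Igfbp4, an IGF-binding protein, were the most abundant of these markers and were not called (0.63 ± 0.27 and 0.40 ± 0.28, SE). Named after their values were seen, Cd34, a stromal and follicle stem cell surface protein, was 2.52 to 13.2 CPM in cKO and 0.528 to 1.76 CPM in WT, without overlap but not called (2.52 ± 0.53, SE, adjusted p = 0.0530, edgeR's quasi-likelihood test), and Dpp4, a surface peptidase, had a log2 fold change of -1.04 ± 0.44 (SE, adjusted p = 0.248, edgeR's quasi-likelihood test). Cd34 was called with DESeq2, with library size only, with no low-count filter and without cKO replicate 2, and Dpp4 without cKO replicate 2. Like Aspn and Col8a2, Ltbp2, Efemp1 and Cxcl12 each had their lowest cKO value in replicate 2. With 1 library left out, Ltbp2 and Cxcl12 were called only without cKO replicate 2 or 4 and Efemp1 only without cKO replicate 2, and the adjusted p in edgeR's quasi-likelihood test ranged from 0.0102 to 0.103 for Ltbp2, 0.0148 to 0.103 for Cxcl12 and 0.00809 to 0.108 for Efemp1. With the replicate number as a block none of these 3 was called (0.0752 for Ltbp2, 0.0665 for Cxcl12, 0.0686 for Efemp1), and limma-voom called Cxcl12 (0.0465) but not Ltbp2 (0.0763) or Efemp1 (0.0744).

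Markers of other cells that an epidermal sheet can carry were read beside these values, and their part in the results was not tested. Of 12 endothelial genes 4 were tested and 0 were called; their summed level was 2.41 to 5.16 CPM in cKO and 4.64 to 7.13 CPM in WT, and Egfl7 and Pecam1, the highest, had log2 fold changes of -0.46 ± 0.41 and -0.34 ± 0.30 (SE). Of 10 pericyte and smooth muscle genes 4 were tested and 0 called (90.7 to 119 CPM in cKO, 109.9 to 128 in WT), with Notch3 (-0.45 ± 0.10) and Mcam (2.56 ± 0.84) highest, and Myh11, Cnn1, Des, Rgs5 and Kcnj8 under 10 counts in every library. Notch3 made up most of this sum, at 70.1 to 87.1 CPM in cKO and 98.9 to 121 CPM in WT, without overlap. It was not called (adjusted p = 0.0598, edgeR's quasi-likelihood test), except with DESeq2 and without cKO replicate 2. The 2 tested genes besides Notch3 and Mcam, named after their values were seen, did not overlap between the genotypes either. Among all tested genes 11.1% had groups without overlap, in either direction. Acta2, the actin of smooth muscle and myofibroblasts, was measured at 1.33, 0.308, 1.33 and 1.09 CPM in cKO and at 4.06, 8.65, 2.25 and 10.04 CPM in WT replicates 1 to 4 (log2 fold change -2.62 ± 0.56, SE, adjusted p = 0.0530, edgeR's quasi-likelihood test, not called). Cspg4, a proteoglycan of pericytes and of some follicle stem cells, was higher in every cKO library (7.01 ± 2.01 CPM against 3.11 ± 0.615 CPM in WT, SD) but was not called (1.17 ± 0.26, SE, adjusted p = 0.0550, edgeR's quasi-likelihood test). Both were called with DESeq2 and with no low-count filter, and Cspg4 also without cKO replicate 2. Of 8 Schwann cell genes 4 were tested and Pmp22 rose (1.89 ± 0.34, SE, adjusted p = 0.0358, edgeR's quasi-likelihood test), while Mbp (-0.42 ± 0.16) and Ngfr (0.04 ± 0.61) were not called (25.4 to 36.2 CPM in cKO, 29.9 to 44.7 in WT). Adipocyte markers, 2 of 6 tested and 0 called, summed to 2.21 to 21.5 CPM in cKO and 37.1 to 63.3 CPM in WT, almost entirely Fabp4 (-2.36 ± 0.70, not called), a lipid carrier also found in endothelium; Cidec had 0.14 ± 0.74, and Plin1 and Cfd were under 10 counts. Skeletal muscle markers, 2 of 9 tested and 0 called, summed to 4.64 to 7.002 CPM in cKO and 5.81 to 8.46 CPM in WT (Mylpf -0.40 ± 0.31, Tnni2 -0.40 ± 0.27).

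Dermal papilla markers, of the fibroblast-like cells at the hair root, were tested for 3 of 6 and called for 0. They summed to 78.3 to 151 CPM in cKO and 86.2 to 157.5 CPM in WT. Sostdc1 alone made up nearly all of this, at 77.7 to 149 CPM in cKO and 85.5 to 156 CPM in WT. Its log2 fold change was -0.10 ± 0.26 and that of Wif1 1.18 ± 0.60, and Sox2, Corin and Rspo3 were under 10 counts. All 7 melanocyte markers were tested and had positive fold changes (median 1.12, 59.97 to 119 CPM in cKO, 34.6 to 52.8 in WT), and 1, the regulator Mitf, rose (1.24 ± 0.17, SE, adjusted p = 0.0200, edgeR's quasi-likelihood test); Dct and Tyrp1 had 1.08 ± 0.29 and 1.14 ± 0.26 and were not called. Of 10 leukocyte markers 0 were called (median -0.26), with Laptm5 at -0.31 ± 0.33 and Cxcr2 at -0.85 ± 0.48. Of 12 keratinocyte markers 0 were called (median -0.20, 69474 to 97118 CPM in cKO, 80503 to 102431 in WT), with Krt10 at 0.02 ± 0.22 and Krt1 at -0.22 ± 0.18. A list of 12 genes of the hair follicle outer root sheath and its stem cells was added with earlier results of these data known. Of these, 3 rose, Krt75 (2.71 ± 0.26), Krt79 (0.95 ± 0.15) and Lgr6 (1.11 ± 0.21), and 0 fell (11 positive, 1 negative, median 0.58). Among all tested genes 0.671% were called higher. Because of how the list was chosen, its counts and its sum are descriptions, and nothing is read from them against that share. The summed level of the list was 2867 to 3691 CPM in cKO and 1505 to 2097 CPM in WT, without overlap. Krt79 made up most of it (cKO mean 2763 ± 365 CPM, WT mean 1432 ± 232 CPM, SD, n = 4 libraries each). The sums for melanocytes, adipocytes and collagen synthesis and processing did not overlap either. Plet1 (-1.10 ± 0.38) and Lrig1 (0.21 ± 0.19) were the most abundant genes of the hair follicle list that were not called. Krt75 was called with any 1 library left out. Of the leave-one-out fits, Krt79 and Lgr6 were called only in those without cKO replicate 2 or 4 (adjusted p up to 0.0868 and 0.117, edgeR's quasi-likelihood test), Pmp22 only without cKO replicate 2 (up to 0.0999), and Mitf in all cases but those without cKO replicate 1, WT replicate 3 or WT replicate 4 (up to 0.0790). With the replicate number as a block Krt79 (0.0534) and Lgr6 (0.0604) were not called.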

How the data were processed

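The deposited tables hold raw counts per gene and FPKM for the same 8 libraries. HISAT2 and HTSeq are named in the submitters' processing notes, without versions; the genome build, annotation and strand setting were not given in the sources used here. The deposited counts were whole reads per gene; the deposited FPKM values come from the same reads, since the lengths they imply were equal in every library for 20863 of 20863 genes (tolerance 1e-04). The labels did not distinguish batches among the libraries.

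Counts were fitted over all genes with edgeR 4.0.16 in R 4.3.3 (filterByExpr with a minimum count of 10, that is 0.262 CPM in at least 4 libraries; TMM factors; quasi-likelihood test of cKO against WT with no covariate), with Benjamini-Hochberg adjustment over 14004 genes and a threshold of 0.05. The procedure was tested on simulated data. No replicates were duplicates (lowest chi-square per degree of freedom 47.9). FPKM was used to compare levels between genes. Alternatives were DESeq2 1.42.0, limma-voom (limma 3.58.1), RLE factors, library size only, other filters, limma on log2(FPKM + 1) or log2(FPKM + 0.1), a replicate block, and leaving out each library. Each fold change's SE was derived from its F statistic. Exact permutation tests used the log2 CPM of 4 against 4 libraries.

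The members and lists were chosen with earlier results of these data known. Genes given in full were the called ones, Col1a1, Col3a1, Dcn, Pdgfra, Thbs1, Tnc, Vim and the 2 of each role with the highest mean FPKM; from other lists, up to 3 called genes per direction and the 2 with the highest mean CPM not called. Other genes and libraries named were chosen after their values were seen. RefSeq promoter windows were used for sequence only.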

Additional observations from a re-analysis of the deposited data

Results flagged for a closer look

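A library stood far from the other 3 of its genotype in 5 of the 46 groups of 4 libraries examined (23 tested genes in 2 genotypes). For normally distributed values chance gives about 1 in 20 groups, or 2.3. CPM values need not be so distributed, and all 5 departures were the highest value of their group, so nothing is read from the number. Thbs1 was 85.7 CPM in cKO replicate 3, with the next cKO library at 32.6 CPM, and Fstl1 was 2.94 CPM in the same library, with the next at 1.12 CPM. Col1a1 was 1.20 CPM in cKO replicate 2, from 43 counts, with the next cKO library at 0.289 CPM. Col6a3 was 0.995 CPM in WT replicate 2, with the next WT library at 0.321 CPM. Aspn was 0.184 CPM in WT replicate 1, from 7 counts, with the next WT library at 0.0535 CPM. The cause of these departures was not tested.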

How the results depend on the processing

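Aspn and Col8a2 were the 2 genes called higher, and 0 were called lower under every alternative. The number called higher was 3 with DESeq2 and with no filter (Postn added), 1 with the replicate block (Aspn, adjusted p = 0.0479; Col8a2, 0.0534), and 0 with limma-voom, with at least 1 CPM in 4 libraries, and with limma on FPKM (both pseudocounts with a minimum of 0.5 FPKM, and no filter). The filters at 1 CPM and 0.5 FPKM left both genes untested. Leaving out 1 library gave 0 to 3. Calls among all genes were 185, with DESeq2 1208, with no filter 349, with FPKM and no filter 19, and 8 to 506 with 1 library left out (506 without cKO replicate 2, 8 without WT replicate 3). The median over the tested genes ranged from -0.14 to 0.32 and so changed sign. The genes covered differed with the filter, and -0.14 was the median of the 10 genes with at least 0.5 FPKM. In settings that covered 23 genes the lowest median was -0.063, without cKO replicate 2. Over alternatives the adjusted p was 1.74e-05 to 0.202 for Aspn, 1.50e-05 to 0.214 for Col8a2 and 0.000632 to 0.157 for Postn. The sign reversed for Col14a1 (limma-voom -0.22, replicate block -0.17), Tnc (limma-voom -0.0068), Dcn (no filter -0.0049), Smoc2 (library size only 0.0095) and Ngfr (limma-voom -0.29, replicate block -0.25, limma on log2(FPKM + 1) -0.0042 with and without the filter, on log2(FPKM + 0.1) -0.14). With 1 library left out the log2 fold change ranged over both signs for Col1a1 -1.97 to 0.17, Col1a2 -0.99 to 0.29, Col6a3 -0.88 to 0.52, Col14a1 -1.32 to 1.01, Dcn -0.26 to 0.43, Thbs1 -0.16 to 0.52, Tnc -0.30 to 0.39, Vim -0.19 to 0.34, Smoc2 -0.37 to 0.15, Col16a1 -0.66 to 0.0294, Ngfr -0.46 to 0.33, Cidec -0.39 to 1.0996, Sostdc1 -0.28 to 0.0873, Laptm5 -0.49 to 0.039 and Krt10 -0.12 to 0.17. None of these genes was called. Of 378 values of the tested genes under alternatives 336 kept direction and side of the threshold, as did 623 of 725 for the other named genes. Replicate numbers were no pairing in the labels: same-numbered libraries correlated at -0.09, 0.12, 0.10 and 0.18 in their deviations, and cKO replicates 1 and 3 correlated best with another number. The replicate block gave 216 calls among all genes. Low counts limit the 22 genes below 1 FPKM.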

Other observations

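In 4 genes picked from outside the 31, cKO replicates 1 and 4 differed from cKO replicates 2 and 3. The check for duplicate libraries divided the cKO group in the same way. Its chi-square per degree of freedom was 69.0 for replicates 1 and 4 and 119 for replicates 2 and 3. For cKO pairs across this split it was 145 to 247. Plod2, a lysyl hydroxylase of collagen crosslinking, was 10.4 and 4.43 CPM in cKO replicates 1 and 4 but 0.252 and 0.6996 CPM in replicates 2 and 3, beside 0.589 to 1.38 CPM in WT. Mcam, an adhesion molecule of pericytes, endothelium and some epithelial cells, was 33.8 and 11.2 CPM in cKO replicates 1 and 4 and 1.82 and 3.69 CPM in replicates 2 and 3. Adamts14, a procollagen N-propeptidase, went the other way, with 0.650 and 0.0714 CPM in replicates 1 and 4 and 7.76 and 11.1 CPM in replicates 2 and 3. Tnxb, which encodes tenascin-X, had 0 and 5 counts in replicates 1 and 4 and 84 and 80 in replicates 2 and 3, with 2 to 9 counts in WT. These genes were picked after their values were seen, and no test was made of the split.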
